A study of Hypericum perforatum with 6 samples.

Results

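In the nucellus of premeiotic ovules of *H. perforatum*, 57 of the 67022 assembled transcripts met a rule for being read only in sexual ovules. They had at least 10 reads in each of 3 sexual libraries and 0 in all 3 aposporous libraries, and were chosen by these reads. Their levels in both phenotypes are therefore a description of the choice, and no test is given for them. In aposporous apomicts, embryo sacs arise from somatic cells of the nucellus without meiosis, whereas in sexual plants the embryo sac descends from a megaspore formed by meiosis. The nucellus is the ovule tissue in which this choice of cell fate is made, and the premeiotic stage precedes it in the sexual pathway.

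The aposporous group had 3 libraries and the sexual group had 3 libraries, each from laser-microdissected nucellus at the premeiotic stage and each pooling RNA of 3 plants. The *H. perforatum* accessions of the study were tetraploid and greenhouse-grown, and the labels name no treatment, altered gene or plant age for either group. Libraries are numbered 1 to 3 within a phenotype, as the pools were. No source used here says whether the pools of a phenotype came from separate accessions. Each *p*-value therefore sets the difference between phenotypes against the spread among these pools only. The phenotypes came from different plants, and differences between accessions in the sequence of a transcript and differences in its expression cannot be told apart. In bulk tissue, fewer cells of a type and less RNA per cell cannot be told apart either. The transcripts outside the *IDN2-like* and *FDM1,4-like* family are not paired with gene names or sequences in the sources used here, so the tissue could not be checked with marker genes and no function is given for any of the 57. None of the 18 annotated transcript variants of that family was among them (0 of 18), and all 18 had reads in at least 1 aposporous library.

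Each transcript is named by its assembly locus, its number within the locus and the number of transcripts assembled there, so that L25343_T13_27 is transcript 13 of 27 of locus 25343. Expression is given as RPKM, the reads scaled by the length of the transcript and by the depth of the library, and read counts were recovered from it. RPM is the same scaling without the length. The aposporous libraries held 29355488 to 39483349 mapped reads and the sexual libraries 33953493 to 38661339. In all, 104284426 aposporous reads stood against 109703368 sexual reads. A count of 0 over the aposporous libraries together allows up to 3 reads, or 0.0288 RPM, and covers counting error only. For the 57 transcripts this limit ranged from 0.0206 RPKM for the longest to 0.0946 RPKM for the shortest. Transcripts were detected less often in sexual libraries 1 and 2 (68.1% and 68.4% of the table) than in sexual library 3 (77.8%), while the aposporous libraries lay between 73.1% and 76.4%.

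The set was small in reads as well as in number. It took 127, 169 and 156 RPM in sexual libraries 1 to 3, and 1 transcript, L2_T187642_835163, held 21.5% of the 16502 sexual reads of all 57. The 5 transcripts with the most reads held 45.1% of them and the first 10 held 60.5%. By mean level in sexual ovules, 13 of the 57 were below 1 RPKM, 34 were from 1 to 5 RPKM, 7 were from 5 to 20 RPKM and 3 were at 20 RPKM or more. The median was 1.76 RPKM, against 10.2 RPKM for all 26023 transcripts that had 10 or more reads in each sexual library. The 209 transcripts read only in aposporous ovules under the same rule had a median of 1.76 RPKM in aposporous ovules.

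The highest levels were those of 3 transcripts of locus 2. L2_T187642_835163, 1134 nt long, had 0 reads in each aposporous library, against 34.7, 23.97 and 26.3 RPKM in sexual libraries 1 to 3. Its 3542 sexual reads put aposporous ovules at least 1122-fold lower in RPM, taking 3 reads over the aposporous group as the floor, the widest such bound of the set. Such a bound restates the reads by which the set was chosen. It covers counting error only and leaves out the spread between pools. L2_T364793_835163, 366 nt long, was more even, at 30.7, 24.2 and 23.9 RPKM in sexual libraries 1 to 3, and was at least 336-fold lower in aposporous ovules. L2_T471800_835163, 309 nt long, had the highest mean, 29.0 RPKM, but its pools were far apart, at 6.28, 30.9 and 49.8 RPKM. Sexual library 1 was thus the highest for the first of these and the lowest for the last.

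The remaining 7 of the 10 highest lay between 5.81 and 10.3 RPKM on average, and most of them varied several-fold between sexual pools. L2_T731252_835163 was at 8.35, 16.7 and 5.88 RPKM in sexual libraries 1 to 3. L2_T167310_835163 was at 4.85, 6.74 and 15.8 RPKM, with library 3 well above the others. L91011_T1_2 was low in library 2, at 0.882 RPKM against 17.8 and 7.62 RPKM in libraries 1 and 3. L21094_T8_10 was low in library 1 instead, at 2.31 RPKM against 12.6 and 9.56 RPKM in libraries 2 and 3. For both, 1 library stood apart from the other pools by several-fold. L2_T641247_835163, the shortest of the 57 at 304 nt, was at 6.89, 8.87 and 3.29 RPKM. L25343_T13_27 was at 3.97, 7.63 and 6.81 RPKM, with all pools within 2-fold of each other. L2_T452953_835163 was at 1.67, 7.38 and 8.36 RPKM, with library 1 well below the others. For these 7 transcripts the highest sexual pool was library 1 once, library 2 in 4 cases and library 3 in 2 cases, so no single pool carried them. For L91011_T1_2 the read counts were 252, 12 and 95, and library 2 was close to the minimum of 10.

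**Figure D1:**
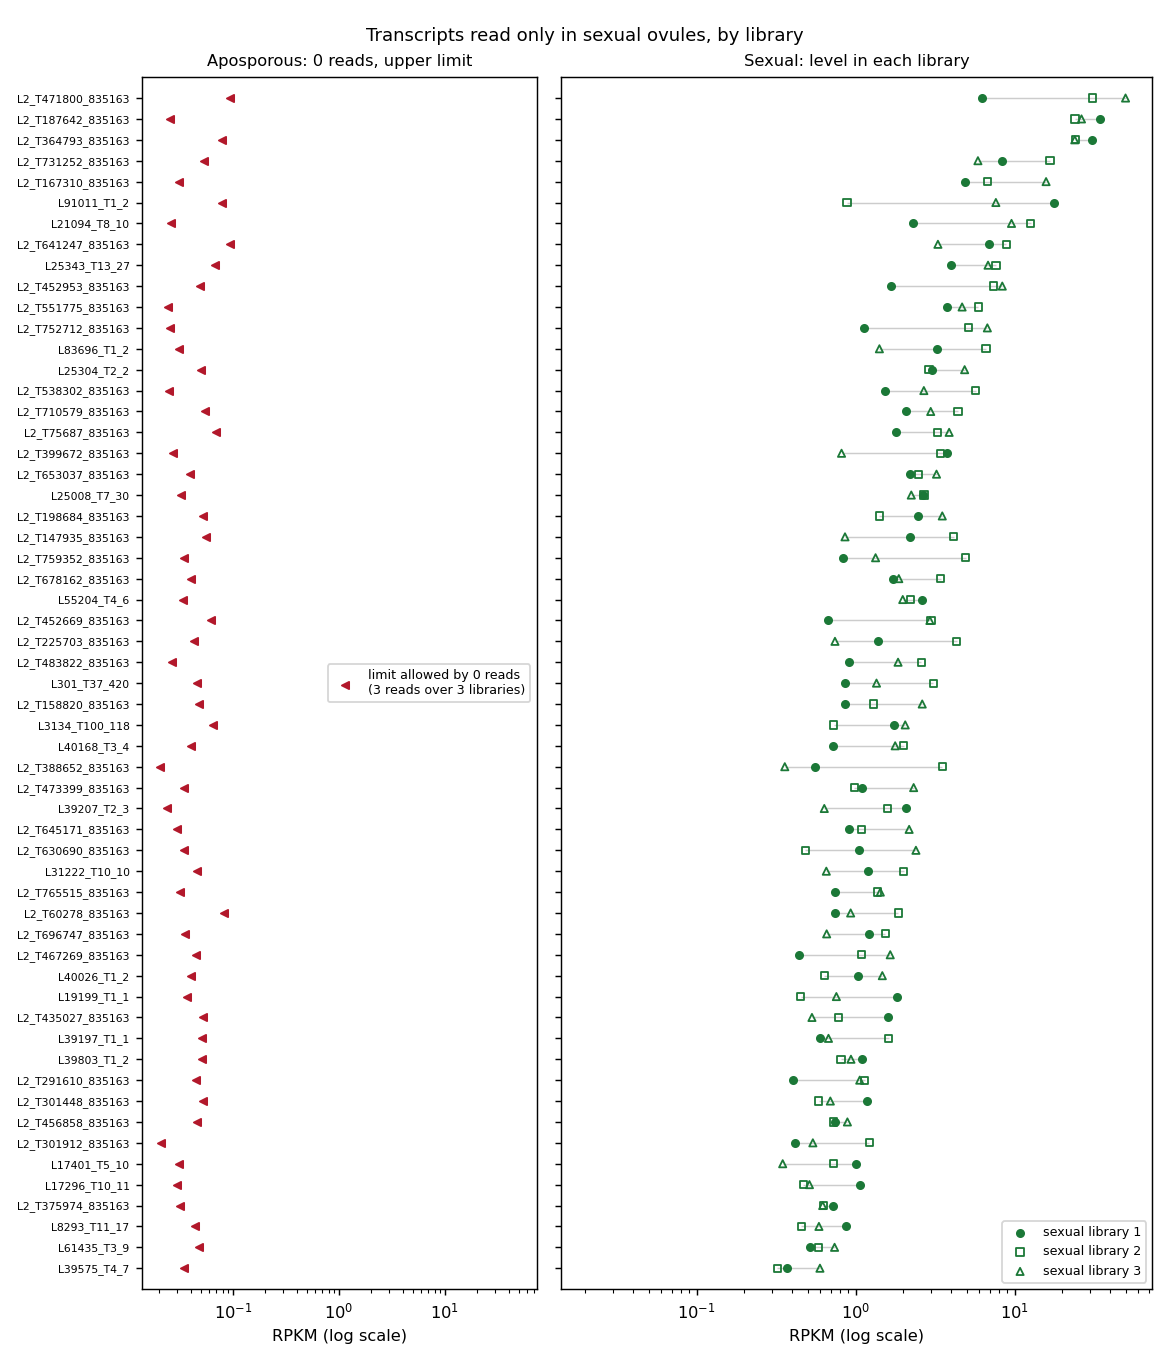
Level of the 57 transcripts read only in sexual ovules, in RPKM on a log axis, sorted by mean. The left panel gives for each transcript the limit that 0 reads over the 3 aposporous libraries allow, 0.0206 to 0.0946 RPKM, and the right panel gives the value in each sexual library with a line across their range. Means ran from 0.429 to 29.0 RPKM, and many lines span several-fold.

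The spread between sexual pools was wide. It was near that of other transcripts within the interquartile range of the set's sexual reads. The 57 themselves ran more widely, from 39 to 3542 sexual reads. The coefficient of variation over the 3 sexual libraries had a median of 48.3% for the 57 transcripts and ran from 8.20% to 120%. The highest pool was more than 2-fold above the lowest for 40 of 57 (70.2%) and more than 5-fold for 8 of 57 (14.0%). Among the 4886 other transcripts whose sexual reads fell within the interquartile range of the set (74 to 246 reads together), the median coefficient of variation was 49.3%, and 71.7% and 16.3% passed those folds. The transcript with the most even pools was L2_T375974_835163, at 0.718, 0.628 and 0.621 RPKM. The least even was L2_T388652_835163, at 0.556, 3.52 and 0.359 RPKM, of whose 229 sexual reads 182 came from sexual library 2. L2_T388652_835163 was also the longest, at 1396 nt. Sexual library 2 was the highest pool for 24 of 57 transcripts (42.1%), library 3 for 19 and library 1 for 14. Among all 26023 transcripts with that minimum in each sexual library, library 2 was the highest for 31.1%.

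In length the set resembled its surroundings in the table. Lengths ran from 304 to 1396 nt with a median of 709 nt, against 758 nt for the 4886 transcripts with similar sexual reads, 740 nt for the 209 transcripts read only in aposporous ovules and 861 nt for all 26023. A short transcript collects fewer reads at a given level, so length is tied to the minimum of 10 reads and is not independent of the choice. Locus 2, a single assembly locus with 33877 transcripts in the table, held 36 of the 57 (63.2%). Its share was 67.1% among the transcripts with similar sexual reads, 61.7% among those read only in aposporous ovules and 72.9% among all 26023. The other 21 transcripts each came from a different locus. The transcripts of locus 2 had a median of 2.26 RPKM in sexual ovules, against 1.44 RPKM for the 21 of other loci. Those of locus 2 that are not given singly here had means of 0.726 to 4.33 RPKM.

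**Figure D2:**
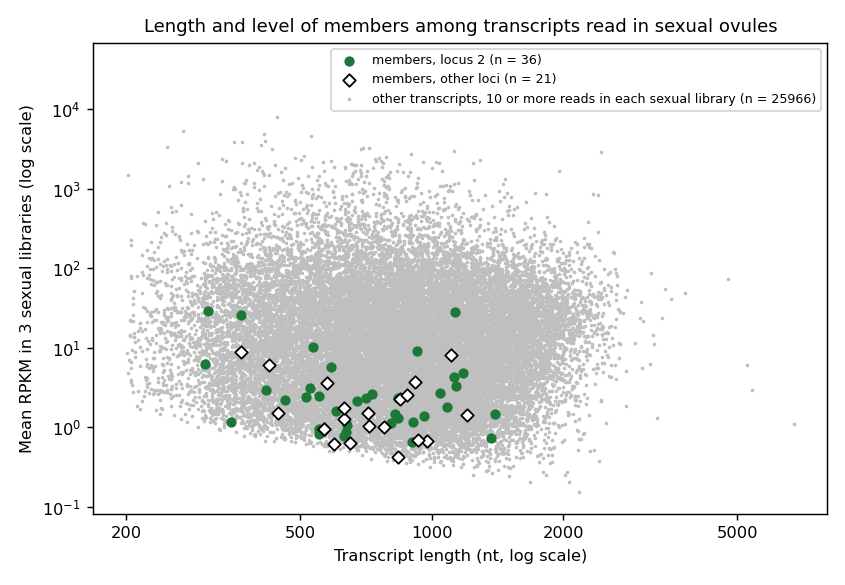
Length (nt, log axis) against mean RPKM in the 3 sexual libraries (log axis). Filled circles are the 36 transcripts of locus 2, open diamonds the 21 of other loci, and grey points the other transcripts with at least 10 reads in each sexual library. The 57 lie within the grey cloud or at its lower edge, from 304 to 1396 nt, mostly in its lower part, at a median of 1.76 RPKM.

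Of the 21 loci other than locus 2, 18 had no aposporous read on any transcript of the table. In 17 of these 18 the transcript read in sexual ovules was the only one listed for its locus, and in locus 17401 the other listed transcript, of 385 nt, had 0 reads in all 6 libraries. A transcript was alone in its locus for 17 of 21 (81.0%), against 64.0% of all transcripts outside locus 2. The share outside locus 2 was 43.8% for transcripts with similar sexual reads and 35.2% for those with at least 10 reads in each sexual library. It was 55.0% for those read only in aposporous ovules. These shares are a description, and no test of the difference was made. The names show that most of these loci had further assembled transcripts that the table does not list. Only L19199_T1_1 and L39197_T1_1 were the single transcript of their locus by name too. The reads of all listed transcripts were then summed by locus. By the same rule, 19 of 25226 loci were read only in sexual ovules and 55 only in aposporous ovules. Of the 19, 18 were those described here. These 18 had to meet the rule, since no other listed transcript of theirs had reads.

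Among the 18 loci without aposporous reads, L21094_T8_10 stood highest by reads, with 979 sexual reads, followed by L83696_T1_2 with 384, L91011_T1_2 with 359 and L25343_T13_27 with 283. L83696_T1_2 was at 3.24, 6.61 and 1.41 RPKM in sexual libraries 1 to 3. L25304_T2_2 was at 3.00, 2.90 and 4.85 RPKM, L25008_T7_30 at 2.67, 2.69 and 2.24 RPKM and L55204_T4_6 at 2.62, 2.23 and 1.98 RPKM. These last 3 were among the most even of the set, with the highest pool less than 2-fold above the lowest. The remaining loci of the 18 had between 10 and 97 reads in a sexual library, so a few reads more or less would change their order. L39207_T2_3, the longest transcript outside locus 2 at 1205 nt, had 97, 71 and 26 reads in sexual libraries 1 to 3. L40168_T3_4 was lowest in library 1, with 20, 53 and 43 reads, whereas L19199_T1_1 was highest there, with 55, 13 and 20 reads. L17401_T5_10 was lowest in library 3, with 36, 25 and 11 reads. No sexual library was the lowest throughout. L39803_T1_2 was even across the pools, with 24, 17 and 18 reads, as was L61435_T3_9, with 12, 13 and 15 reads. L31222_T10_10, L40026_T1_2, L39197_T1_1 and L17296_T10_11 had 13 to 47 reads in each sexual library. The assembly's confidence score in the name, which runs from 0 to 1, had a median of 0.250 for the 21 transcripts outside locus 2, against 0.200 for those with similar sexual reads.

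The remaining 3 loci, 301, 3134 and 8293, were read in aposporous ovules through other transcripts. At locus 301, which held 20 listed transcripts, L301_T37_420 had 0 reads in each aposporous library, against 21, 72 and 29 reads in sexual libraries 1 to 3. It made up 0.102% of the sexual reads of the locus. The other 19 transcripts together were at 1876, 1689 and 1867 RPKM in aposporous libraries 1 to 3, against 1519, 1585 and 2035 RPKM in sexual libraries 1 to 3. The groups overlapped. The sum of the locus without L301_T37_420 had a log2 fold change of 0.09, aposporous over sexual (limma, SE 0.17, FDR = 0.865). L301_T412_420, the most expressed transcript of the locus, was at 750 ± 115 RPKM in aposporous and 672 ± 245 RPKM in sexual ovules (SD, n = 3 libraries each) and did not pass the test (limma, FDR = 0.822).

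At the same locus, L301_T72_420 fell in aposporous ovules and was read much more deeply than L301_T37_420. It had 4, 3 and 1 reads in aposporous libraries 1 to 3, against 1396, 1386 and 1834 reads in sexual libraries 1 to 3, and so missed the rule by 8 reads. No aposporous library came near a sexual one. Its level was 0.0827 ± 0.0560 RPKM in aposporous and 42.8 ± 10.1 RPKM in sexual ovules (SD, n = 3). The log2 fold change was -5.32 on the log2(RPKM + 1) scale (limma, SE 0.34, FDR = 0.000370). This scale understates the change of transcripts near 0 RPKM, and the log2 fold change was -7.90 with a pseudocount of 0.1. Scaled by library totals, its reads were 548 times as many in sexual ovules (95% counting interval 278 to 1271). This interval pools the reads of each phenotype and leaves out the spread between pools. It was the 1 transcript called among the 19 others of these loci that could be tested (10 or more reads in at least 3 of the 6 libraries), where 2.11% of the 33117 tested transcripts were called (0.61% as lower and 1.5% as higher in aposporous ovules). It passed the filter only through the sexual libraries, where it is high. With so few aposporous reads it needed 10 or more in each sexual library to be tested. Its call is therefore a description rather than support for the loci. With no filter its FDR was 0.000282 (limma), and without any 1 sexual library, or with 10 reads asked of every library, it was not tested. The median log2 fold change of the 19 was 0.01, against 0.03 over all tested transcripts, and 9 of them lay below 0 and 10 above.

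Of these 19, 3 had all aposporous libraries below all sexual ones and 1 had them above, an arrangement that 9.9% and 10.2% of the tested transcripts had. Among them, L301_T72_420 and L301_T252_420 passed the filter only through the phenotype where they are high. L301_T126_420 was at 3.65, 2.36 and 1.86 RPKM in aposporous libraries 1 to 3, against 6.53, 6.13 and 5.81 RPKM in sexual libraries 1 to 3, a log2 fold change of -1.01 (limma, SE 0.35, FDR = 0.226). L301_T252_420 lay the other way, at 1.88, 1.09 and 1.19 RPKM in aposporous and 0.356, 0.371 and 0.243 RPKM in sexual libraries (log2 fold change 0.84, limma, SE 0.26, FDR = 0.166). Neither passed the test. Reads of near-identical transcripts of a locus may be split among them, which makes a single transcript less certain than the sum.

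**Figure D3:**
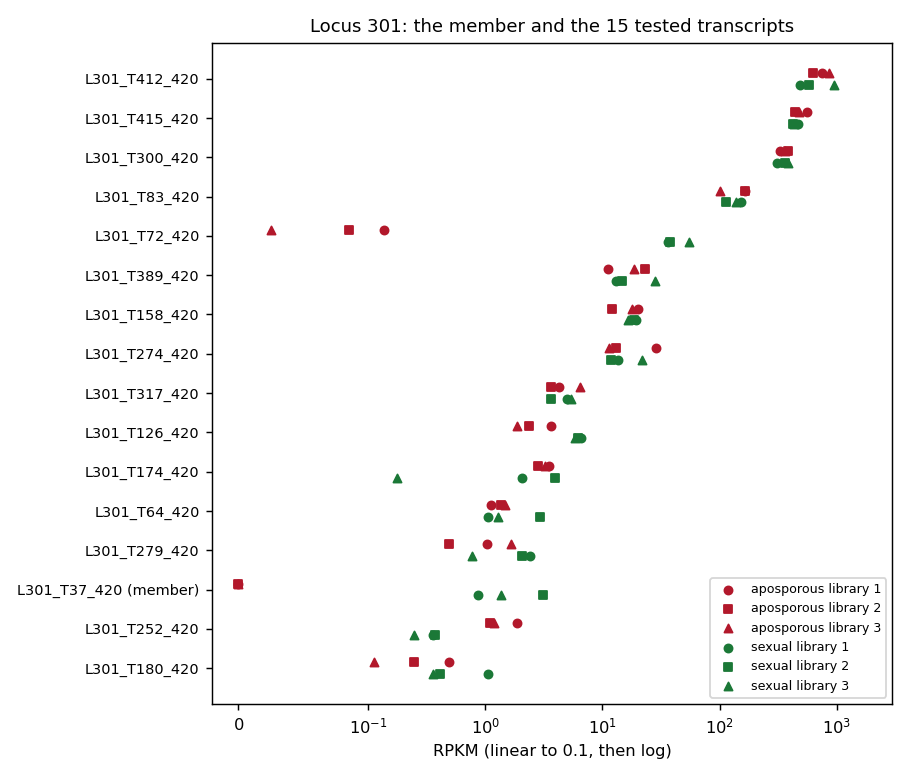
RPKM of L301_T37_420 and the 15 tested transcripts of locus 301 in each library (axis linear to 0.1, then log), red for aposporous and green for sexual libraries. For L301_T37_420 the red points lie at 0, for L301_T72_420 they average 0.0827 RPKM against 42.8 RPKM in sexual ovules, and in most other rows red and green overlap.

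At locus 3134, L3134_T100_118 had 0 reads in each aposporous library, against 30, 12 and 31 reads in sexual libraries 1 to 3, and gave 1.998% of the sexual reads of the locus. The other 7 listed transcripts summed to 26.4 ± 9.32 RPKM in aposporous and 27.1 ± 4.96 RPKM in sexual ovules (SD, n = 3). The log2 fold change of this sum was -0.08 (limma, SE 0.30, FDR = 0.942), and its sign changed with scaling and with the omission of single libraries. L3134_T24_118, the most expressed, was at 17.3, 12.4 and 15.8 RPKM in aposporous and 23.7, 21.7 and 13.3 RPKM in sexual libraries, and the groups overlapped. L3134_T106_118 was at 0.170, 0.123 and 0.189 RPKM in aposporous and 1.29, 0.420 and 0.275 RPKM in sexual libraries and did not pass the test (limma, FDR = 0.494). At locus 8293, L8293_T11_17 had 0 aposporous reads, against 22, 11 and 13 reads in sexual libraries, and gave 46.0% of the sexual reads of the locus. Its neighbour L8293_T15_17 had 6, 6 and 0 reads in aposporous and 7, 25 and 11 reads in sexual libraries. The other transcripts of that locus had too few reads to be tested. Beside the single call at locus 301, none of the locus sums that could be tested, those of loci 301 and 3134, passed (0 of 2 with limma, 0 at an unadjusted *p* under 0.05, and 0 with voom), where 0.585% of 6837 locus sums were called (0.176% as lower and 0.41% as higher in aposporous ovules).

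Locus 2 is too large for a sum over the locus to bear on single members, so the transcripts numbered within 10 of a member were described instead. Of the 18 variants of the *IDN2-like* and *FDM1,4-like* family, 3 pairs in locus 2 are numbered within 10 of each other, and 2 of these pairs were placed on the same gene by the study. Whether the transcripts below share sequence was not tested. Of the 36 members in locus 2, 24 had such a neighbour in the table and 12 had none. They had 43 neighbours, of which 6 had no aposporous read and 21 were read in each aposporous library. Mean RPKM was lower in aposporous than in sexual ovules for 28 of the 43 and higher for 15, a split that was not taken over all transcripts. Only 20 of the 43 had enough reads to be tested. Of those 20, 11 had a log2 fold change below 0 and 9 above, against 15780 and 17337 of all tested transcripts. The members themselves were not clustered at this scale, since the closest 2 were 284 numbers apart.

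Among the 20 neighbours that passed the filter, 2 were called, 1 in each direction, against 0.61% of tested transcripts called as lower and 1.5% as higher in aposporous ovules. L2_T364795_835163, 701 nt long and numbered 2 after L2_T364793_835163, had 1, 1 and 1 reads in aposporous libraries 1 to 3, against 1182, 1050 and 959 reads in sexual libraries 1 to 3. Every sexual library was far above every aposporous one, as for the member beside it, and both transcripts were even across the sexual pools. Its level was 0.0416 ± 0.00637 RPKM in aposporous and 41.4 ± 1.89 RPKM in sexual ovules (SD, n = 3), so that the log2 fold change was -5.35 (limma, SE 0.31, FDR = 0.000299). Scaled by library totals, its reads were 1011 times as many in sexual ovules (95% counting interval 346 to 4906, without the spread between pools). It too was tested only through the sexual libraries, and its call is likewise a description. With no filter its FDR was 0.000251 (limma), and without sexual library 1, 2 or 3, or with 10 reads asked of every library, it was not tested. A further neighbour, L2_T399665_835163 beside L2_T399672_835163, had 2, 4 and 1 reads in aposporous and 54, 191 and 260 reads in sexual libraries, a log2 fold change of -1.89 that missed the threshold (limma, SE 0.43, FDR = 0.0670). It passed with a pseudocount of 0.5 (limma, FDR = 0.0469) or 0.1 (limma, FDR = 0.0274), which made 3 neighbours called. With these, 2.44% and 2.52% of all tested transcripts were called. L2_T399665_835163 too was tested only through the sexual libraries.

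L2_T471794_835163 rose in aposporous ovules beside L2_T471800_835163, the transcript with the highest mean level of the 57. It had 89, 147 and 189 reads in aposporous libraries 1 to 3, against 3, 6 and 19 reads in sexual libraries 1 to 3. Its level was 8.22 ± 1.83 RPKM in aposporous and 0.549 ± 0.531 RPKM in sexual ovules (SD, n = 3), which makes the log2 fold change 2.61 (limma, SE 0.39, FDR = 0.0142). It passed the filter through the aposporous libraries, where it is high, as only sexual library 3 also reached 10 reads. Its call is therefore a description as well. With no filter its FDR was 0.0225 (limma). The call was lost without any 1 aposporous library (FDR = 0.0780, 0.114 and 0.120 without library 1, 2 and 3), without sexual library 1 (0.0651) or 2 (0.0970) and with voom (0.0557). Between both numbers lies L2_T471796_835163, at 70.9, 61.4 and 76.9 RPKM in aposporous and 61.3, 77.7 and 50.4 RPKM in sexual libraries, where the groups overlapped (limma, FDR = 0.848). A like arrangement was seen around L2_T731252_835163. There L2_T731246_835163 had 55, 260 and 86 reads in aposporous and 16, 10 and 10 reads in sexual libraries (log2 fold change 1.73, limma, SE 0.45, FDR = 0.102), and L2_T731249_835163 had 0 reads in aposporous and 24, 47 and 8 reads in sexual libraries. The first did not pass the test, and the last missed the minimum of 10 in sexual library 3. Over all 20 tested neighbours, 7 had all aposporous libraries below all sexual ones and 2 had them above, against the 9.9% and 10.2% of tested transcripts. Of the former, L2_T364795_835163, L2_T399665_835163 and L2_T301452_835163 passed the filter only through the sexual libraries, where they are high. Of the latter, L2_T471794_835163 passed it through the aposporous ones. The arrangement thus follows in part from the filter, and the difference in share was not tested. The median log2 fold change of the 20 was -0.40, with 11 below 0 and 9 above. Members and neighbours were read in the same libraries, and neighbours may share reads with members.

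**Figure D4:**
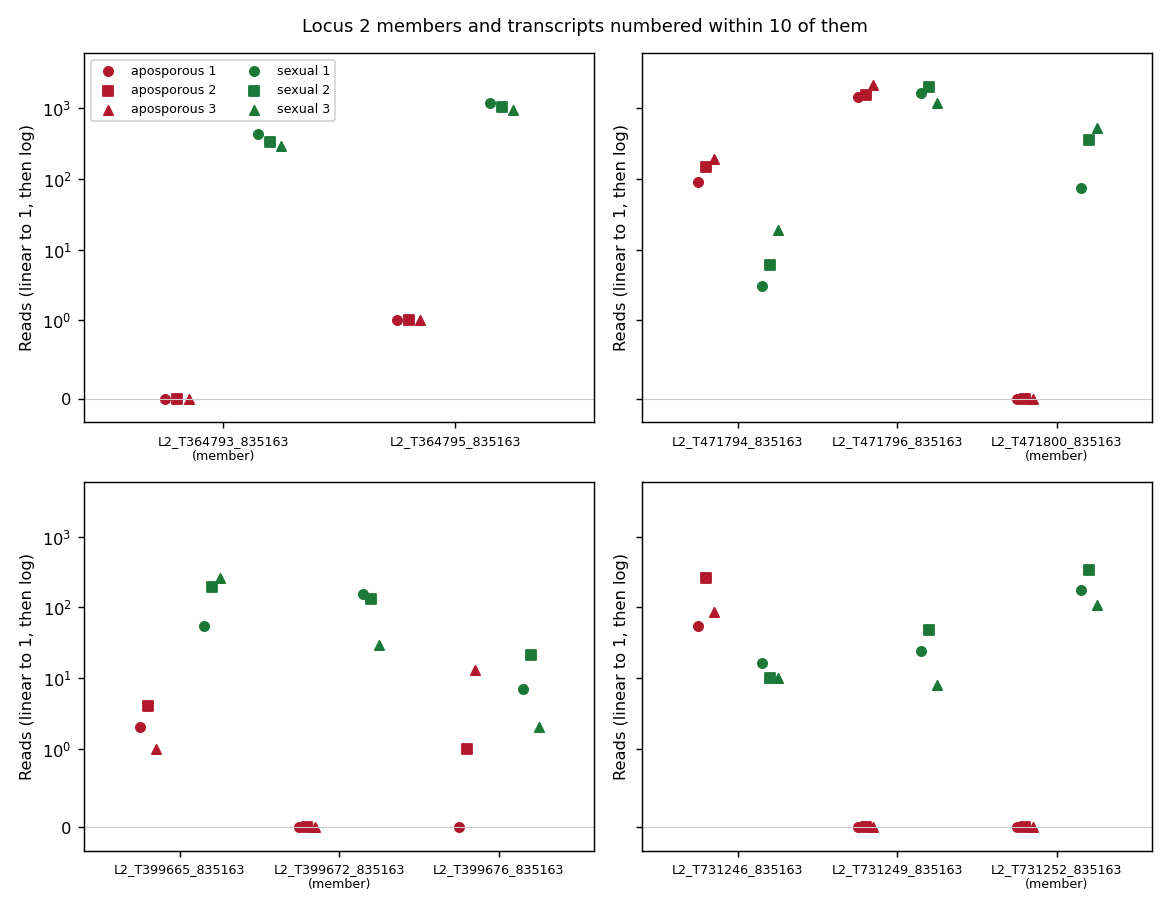
Reads in each library (axis linear to 1, then log) for 4 members of locus 2 and the transcripts numbered within 10 of them, red for aposporous and green for sexual libraries. The 4 members are those beside the neighbours with the smallest adjusted *p*. L2_T364795_835163 has 1 read in each aposporous library and 959 to 1182 in the sexual libraries, while L2_T471794_835163 and L2_T731246_835163 have more reads in the aposporous libraries.

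The count of 57 depended on where the limits were set. With at least 5 reads in each sexual library there were 96 such transcripts, with at least 20 there were 32, with 50 there were 13 and with 100 there were 5. Those 5 were all of locus 2, namely 4 of the 10 highest and L2_T551775_835163, which had 170, 259 and 187 reads in sexual libraries 1 to 3. Just inside the minimum, 4 transcripts had 10 reads in their lowest sexual library. They were L2_T60278_835163 with 10, 24 and 11 reads in sexual libraries 1 to 3, L2_T435027_835163 with 34, 16 and 10, L2_T291610_835163 with 10, 27 and 23 and L39575_T4_7 with 12, 10 and 17. The last had the lowest mean of the set, 0.429 RPKM, and the weakest such counting bound of the 57, at least 12.4-fold lower in aposporous ovules. Just outside it, 5 transcripts with 0 aposporous reads had 9 reads in their lowest sexual library. The 3 with the most sexual reads were L466_T15_51 with 18, 9 and 38 reads, L2010_T27_51 with 14, 41 and 9 and L40241_T3_6 with 9, 14 and 30.

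On the aposporous side there was no gap between 0 and a few reads. Of the transcripts with at least 10 reads in each sexual library, 57 had 0 aposporous reads together, 32 had 1 read, 31 had 2 reads, 23 had 3 reads and 24 had 4 reads. L2_T32581_835163 had 0, 1 and 0 reads in aposporous libraries 1 to 3, against 121, 213 and 121 reads in sexual libraries 1 to 3. L79840_T1_1 had 1, 0 and 0 aposporous reads, against 86, 203 and 122 sexual reads, and L2_T579311_835163 had 1, 0 and 0 aposporous reads, against 13, 120 and 168 sexual reads. These 3 were read more deeply in sexual ovules than most of the 57, whose median was 138 sexual reads together. Allowing 1 read in any aposporous library gave 106 transcripts and allowing 3 reads in all gave 143.

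Aposporous library 1 alone kept more transcripts out of the set than either other aposporous library. With at least 10 reads in each sexual library and none in the other 2 aposporous libraries, 72 transcripts were read in aposporous library 1, 19 in library 2 and 14 in library 3. Of these, 22, 2 and 2 had at least 10 reads there. Library 1 was the shallowest of the 6, with 29355488 mapped reads. Without it the rule gave 129 transcripts, against 76 and 71 without aposporous library 2 or 3. Leaving out sexual library 1, 2 or 3 gave 127, 98 and 95. Leaving out a library can add transcripts to the set and cannot remove any, and all 57 were kept each time.

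Fewer transcripts were read only in sexual ovules than only in aposporous ovules, 57 against 209. The aposporous count was 3.67 times as large, and it was the larger one in all 13 alternatives of the rule, by 2.24 to 5.04 times. It was so at every minimum tried, with 96 against 404 at 5 reads, 32 against 110 at 20 reads, 13 against 45 at 50 reads and 5 against 22 at 100 reads. The sexual libraries together held more reads than the aposporous ones. Sexual libraries 1 and 2 detected fewer of the transcripts (68.1% and 68.4%) than the aposporous libraries (73.1% to 76.4%). Sexual library 3 detected more (77.8%). Whether depth or detection bears on the counts was not tested. Of the transcripts read only in aposporous ovules under a rule that left 1 sexual library aside, 144 were read in sexual library 3 alone, 76 in library 1 alone and 62 in library 2 alone. Without any minimum, 438 transcripts had reads in each sexual library and none in an aposporous library, and 1369 had reads in each aposporous library and none in a sexual library. When reads in each library of the other phenotype were not asked for, the numbers were close. Of all transcripts, 6841 (10.2%) had 0 aposporous reads and 6933 (10.3%) had 0 sexual reads. With 3 libraries each, the difference between 57 and 209 was not tested.

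**Figure D5:**
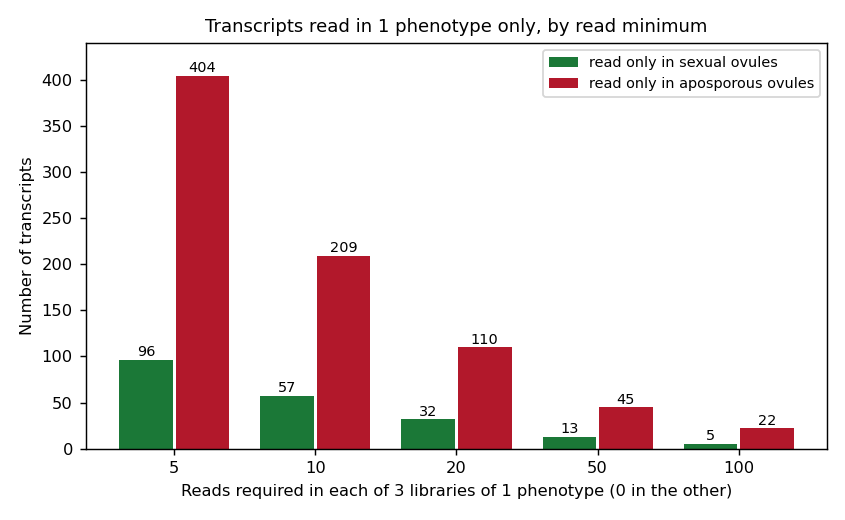
Number of transcripts read only in sexual ovules (green) and only in aposporous ovules (red), by the reads required in each of the 3 libraries of that phenotype, with 0 in the other. Bars start at 0, and the green bar is the lower one at each minimum, from 96 against 404 at 5 reads to 5 against 22 at 100 reads.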

How the data were processed

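Using CLC Genomics Workbench 7 with its defaults, the authors mapped the 6 libraries to a de novo ovule transcriptome, and the deposited values are RPKM per transcript. The sources used here state no read filter. Each column was matched to a sample by its label, leaving 0 without one. Multiplying RPKM by the length in the transcript name and dividing by a value specific to each library gave whole reads (within 0.1) for 100% of values. Members, lists and tests were chosen with earlier results of these data known.

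Transcripts other than members were compared with limma 3.58.1 (R 4.3.3, trend and robust options) on log2(RPKM + 1), sexual as reference, on 33117 transcripts reaching 10 reads in 3 or more libraries. Calls required FDR ≤ 0.05 (Benjamini-Hochberg over all tested). RPKM summed per locus without members was fitted likewise. The fit was tried on simulated reads with a single fixed spread and changes planted only in deeply read transcripts. That trial does not bear on transcripts near 0 reads in a phenotype. Named by rule were the 10 members highest in sexual ovules, the 20 highest of other loci, the 3 with the lowest smallest count (4 were tied), those of widest and narrowest coefficient of variation, the longest and shortest, the 3 deepest just outside each limit, and the most expressed and the called other transcripts of members' loci. L301_T126_420, L301_T252_420, L3134_T106_118, L2_T551775_835163 and the neighbours in locus 2 that were not called were named after their values were seen. No gene list or marker list was used, since names are lacking. Other minimums, pseudocounts, scalings, filters, voom, a replicate block and the omission of each library were tried. The planned count models were not run, because the deposited unit is RPKM. Python 3.11.15, numpy 2.4.6, pandas 2.3.3 and matplotlib 3.10.9 were used.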

Additional observations from a re-analysis of the deposited data

How the results depend on the processing

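The number of transcripts read only in sexual ovules, 57, was 96 with at least 5 reads, 32 with 20, 106 with up to 1 aposporous read per library and 143 with up to 3 in all. Minimums chosen after the data were seen gave 13 with 50 reads and 5 with 100. Without 1 library it ran from 71 to 129. The number read only in aposporous ovules, 209, was 404 with 5 reads, 110 with 20, 361 with up to 3 sexual reads in all, 45 with 50 and 22 with 100, and without 1 library it ran from 258 to 383. A minimum of 0.3 RPM gave 51 and 208. The counts move by construction of the rule. Of the other transcripts of the same loci, 1 was called, and 0 with 10 reads in every library (13 tested), a filter that removes L301_T72_420. Without 1 library the count ran from 0 to 1. Of the neighbours in locus 2, 2 were called, 0 with 10 reads in every library (10 tested), 1 with voom, 3 with a pseudocount of 0.1 or 0.5, 1 for numbers within 5 (7 tested) and 7 for numbers within 50 (104 tested), and 0 to 1 without 1 library. The locus sum without members at locus 3134 had a log2 fold change of -0.077, reversed to 0.087 under TMM scaling, 0.16 without aposporous library 2 and 0.023 without sexual library 1, and ran from -0.33 to 0.16 without 1 library. TMM scaling moved the median of all locus sums to 0.14. Over all tested transcripts 699 were called (2.11% of 33117), a share that also goes with numbers within 5 and within 50. With a pseudocount of 0.1 or 0.5, 836 (2.52%) and 808 (2.44%) were called, and 325 (0.981%) with voom. With no filter 352 were called (0.529% of 66494), and 40 with 10 reads in every library (0.167% of 23919). The causes were not tested. Without 1 library, 41 to 478 were called (0.132% to 1.51%).

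Aposporous and sexual libraries share pool numbers. Same-numbered libraries deviated together only weakly (r = 0.0488, 0.0637 and 0.0381 for pools 1 to 3), each library correlated best with its own number, and no source pairs the pools. With pool number as a replicate block, 353 transcripts were called in place of 699, with the call on L301_T72_420 (1), both calls among the neighbours (2) and the 0 calls among locus sums unaltered in number. The planned count models were not run on the RPKM values. Depth limits the lowest members most, since 10 reads were the minimum and a count of 0 allows 3.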

Other observations

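The most expressed transcript of locus 2, L2_T411616_835163, was at 38590, 32591 and 59356 RPKM in aposporous libraries 1 to 3, against 46367, 29871 and 35368 RPKM in sexual libraries 1 to 3. The groups overlapped, and it is no neighbour of a member by number.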
